A study of Homo sapiens with 33 samples.

Results

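The 8 genes described here are T (brachyury), EOMES, MIXL1, GSC, LHX1, MESP1, TBX6 and EVX1, transcription factor genes of the primitive streak and of the mesendoderm that forms there. They were taken by name, and 8 of them are among the 35805 genes with RNA-seq values and 8 among the 35683 gene names with ChIP-seq values. The study asked what the loss of EZH2 does to chromatin and transcription in H9 human ESCs, an established embryonic stem cell line grown on mouse embryonic fibroblast feeders, and the series holds 12 RNA libraries and 21 ChIP-seq or input samples. The 4 genotypes, with 3 RNA libraries each, were the parental EZH2+/+ cells, an EZH2-/+ line with 1 allele disrupted by CRISPR/Cas9, an EZH2-/- line, and the same EZH2-/- cells with EZH2 restored (EZH2-/- +EZH2). The EZH2-/- line was made by targeting an EZH2-/+ line again after a doxycycline (DOX)-inducible EZH2 transgene had been inserted by piggyBac transposition. It was kept without DOX, and EZH2-/- +EZH2 cells are such cells given DOX, so both share the disrupted alleles. The study also made EZH2-/- lines with the transgene excised, and neither its methods nor the sample titles say which were sequenced. Without excision these genotypes share the transgene too and differ in DOX. Each mutant genotype was measured in cells of a picked line, so a difference between genotypes cannot be told apart from a difference between lines. The exception is EZH2-/- and EZH2-/- +EZH2 cells, which are the same line unless the transgene was excised. RNA was taken from cells sorted for the surface marker SSEA4, which pluripotent cells carry.

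EZH2 is the catalytic subunit of Polycomb repressive complex 2 (PRC2), which methylates lysine 27 of histone H3 (H3K27me3) at promoters, many of them rich in CpG, of developmental genes that are silent in ESCs. In the embryo, Nodal, WNT and BMP signals induce the primitive streak, where epiblast cells turn on T and EOMES and leave the epithelium as mesoderm or definitive endoderm. T, EOMES and TBX6 are T-box factors, MIXL1, GSC, LHX1 and EVX1 carry a homeodomain, and MESP1 is a basic helix-loop-helix factor. T and EVX1 act in the streak and the posterior mesoderm, EOMES and MIXL1 in mesendoderm, GSC and LHX1 in the anterior streak and organizer, MESP1 in the earliest cardiac mesoderm, and TBX6 in presomitic mesoderm.

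The RNA libraries held between 16587860 and 36589087 reads on genes, and 3 reads, taken as the limit of detection, stood for 0.0528 to 0.12 RPM (reads scaled to a common library total, as the deposited table gives them). EZH2 itself measured 59.5 to 68.6 RPM in EZH2+/+ ESCs, 45.7 to 55.4 in EZH2-/+, 8.65 to 11.5 in EZH2-/- and 256 to 385 in EZH2-/- +EZH2 ESCs, a log2 fold change of -4.91 ± 0.17 (SE) in EZH2-/- against EZH2-/- +EZH2 ESCs (limma, adjusted p = 1.2e-08). Pluripotency genes marked all genotypes: the summed RPM of 11 such genes ran from 2560 to 3230 in EZH2+/+, from 3430 to 4060 in EZH2-/+, from 3550 to 4060 in EZH2-/- and from 3490 to 4110 in EZH2-/- +EZH2 ESCs, with 0 of the 11 at 0 in every library of a genotype. All 8 regulators passed the filter of a mean of 0.1 RPM over the 12 libraries, also over the 9 libraries left without EZH2-/- ESCs. Within each genotype 1 library was the highest for most of the 8 regulators, number 1 of EZH2-/- +EZH2 for 7, number 2 of EZH2-/- for 7, number 1 of EZH2+/+ for 6 and number 2 of EZH2-/+ for 5. The lowest was number 1 of EZH2-/- for 6, number 3 of EZH2+/+ for 6, number 3 of EZH2-/+ for 6 and number 3 of EZH2-/- +EZH2 for 5. Library 1 of EZH2-/- +EZH2, whose EZH2 level of 271 RPM lay within the range of the other two, and library 2 of EZH2-/+ reached the EZH2-/- range for EOMES and for EOMES and GSC, and each gene's fold change against their genotype is also given without them.

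The promoters of 4 genes are shown because they carry the contrasts described below. T and EVX1 had much H3K27me3 and more RNA without EZH2, MIXL1 had less H3K27me3 than these 2, with RNA in the EZH2-/- libraries that lay above all others but passed no comparison in the limma fit without a block, and TBX6 had H3K27me3 of at most 1.15 times input. Each is the RefSeq stretch (GRCh38.p14) from 250 bases before to 50 bases after an annotated start, 5′ to 3′ on the gene's strand, with every CG in capitals. RefSeq promoters were matched for 6 of the 8 genes, and T is entered there as TBXT.

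T, chr6:166167802-166168101, minus strand: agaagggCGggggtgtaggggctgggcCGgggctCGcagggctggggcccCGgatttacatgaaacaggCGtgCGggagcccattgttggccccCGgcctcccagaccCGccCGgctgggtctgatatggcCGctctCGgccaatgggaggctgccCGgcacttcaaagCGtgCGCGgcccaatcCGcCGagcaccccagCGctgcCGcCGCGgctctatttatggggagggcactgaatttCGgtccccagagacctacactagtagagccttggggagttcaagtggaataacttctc

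EVX1, chr7:27242552-27242851, plus strand: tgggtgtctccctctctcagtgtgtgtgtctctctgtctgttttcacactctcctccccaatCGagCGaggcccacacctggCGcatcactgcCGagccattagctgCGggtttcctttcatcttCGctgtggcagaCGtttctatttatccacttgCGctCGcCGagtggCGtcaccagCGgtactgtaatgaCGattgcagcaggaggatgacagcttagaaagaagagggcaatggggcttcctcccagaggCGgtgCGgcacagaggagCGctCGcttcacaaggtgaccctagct

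MIXL1, chr1:226223414-226223713, plus strand: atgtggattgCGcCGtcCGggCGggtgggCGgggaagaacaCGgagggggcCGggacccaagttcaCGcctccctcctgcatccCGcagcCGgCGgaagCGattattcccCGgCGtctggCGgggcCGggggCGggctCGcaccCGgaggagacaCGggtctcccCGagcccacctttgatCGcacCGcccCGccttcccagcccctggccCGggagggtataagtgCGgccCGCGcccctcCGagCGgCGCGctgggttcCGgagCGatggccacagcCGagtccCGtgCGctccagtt

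TBX6, chr16:30091875-30092174, minus strand: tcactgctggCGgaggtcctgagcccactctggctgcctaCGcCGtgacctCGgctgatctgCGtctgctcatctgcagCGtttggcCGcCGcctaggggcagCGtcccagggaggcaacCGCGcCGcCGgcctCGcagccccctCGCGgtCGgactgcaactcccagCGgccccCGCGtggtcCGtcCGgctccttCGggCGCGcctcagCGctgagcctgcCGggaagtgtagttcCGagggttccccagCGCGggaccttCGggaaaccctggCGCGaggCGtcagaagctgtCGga

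The T stretch holds 22 CG, the EVX1 stretch 17, the MIXL1 stretch 37 and the TBX6 stretch 35, against a median of 14 over 35116 promoters of this length. Of those promoters, 37.7% have at least as many CG as the T stretch, 46.0% as many as EVX1, 11.3% as many as MIXL1 and 14.1% as many as TBX6, and among the 6 matched genes MIXL1 and TBX6, the 2 with the least H3K27me3, had the most CG in this window. Of the promoters not printed, GSC and EOMES hold 21 each and the other T entry 25. A search for 3 short motifs was made on both strands: CTTTGAT for TCF/LEF factors, which act in WNT signalling and which 2.62% of all promoters contain, GGTGTGA for T-box factors (3.45%), and AATNCACA for FOXH1, a partner of Nodal-activated SMADs (3.31%). Matches came in MIXL1, with CTTTGAT on the plus strand 76 bases before the start and AATNCACA on the minus strand 249 bases before it, and in none of the other 5 matched genes. All these stretches lie inside the 5 kb windows in which the ChIP-seq reads were counted.

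In RNA, 4 of the 8 regulators, T, MIXL1, LHX1 and EVX1, were higher in each of the 3 EZH2-/- libraries than in any of the 9 other libraries, as were 7.44% of the 20608 genes tested. In the comparison with EZH2-/- +EZH2 ESCs, LHX1 and EVX1 passed the test and 0 fell. Against EZH2+/+ ESCs T, LHX1 and EVX1 rose, and against EZH2-/+ ESCs T, LHX1, MESP1 and EVX1 rose. EOMES, MIXL1 and GSC had positive fold changes in these 3 comparisons that did not pass, and those of TBX6 lay between -0.42 and 0.67. In bulk RNA, more cells with a transcript and more transcript per cell cannot be told apart. The study's single-cell RNA-seq, which is not among these samples, found EZH2-target genes strongly raised in only a subset of EZH2-/- cells. The plot of RPM by library shows each value.

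**Figure D1:**
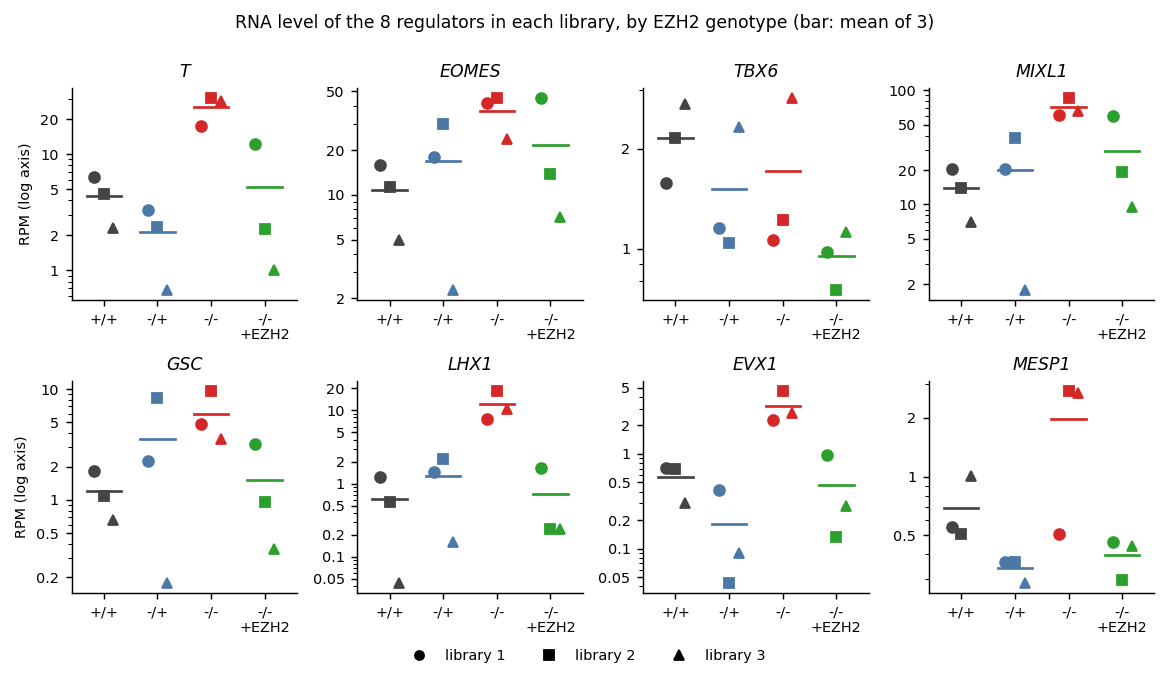
RPM (log axis) of the 8 regulators in each of the 12 RNA libraries, grouped by EZH2 genotype, with the symbol giving the library number and a bar the mean of 3 libraries. For T, MIXL1, LHX1 and EVX1 the 3 EZH2-/- libraries lie above all others, whereas library 1 of EZH2-/- +EZH2 ESCs lies with them for EOMES and close under them for MIXL1.

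Among the T-box genes, T (ENSG00000164458, chr6:166157656-166168700, minus strand), the mesoderm factor that defines the streak, measured 6.37, 4.51 and 2.29 RPM in EZH2+/+ libraries 1 to 3. Its level was 3.31, 2.38 and 0.676 RPM in EZH2-/+, 17.3, 30.6 and 28.8 in EZH2-/-, and 12.3, 2.28 and 0.999 in EZH2-/- +EZH2 libraries. The EZH2-/- values lay above all others, and library 1 of EZH2-/- +EZH2 was nearest to them. T rose against EZH2+/+ (log2 fold change 2.58 ± 0.75, SE, adjusted p = 0.021) and against EZH2-/+ ESCs (3.73 ± 0.75, adjusted p = 0.0048). Against EZH2-/- +EZH2 ESCs the fold change of 2.97 ± 0.75 just missed (adjusted p = 0.054). It passed once the fit had library number as its block (adjusted p = 0.011), although the numbered pairs differed by 0.49, 3.69 and 4.71. It also passed with a pseudocount of 0.5 RPM (adjusted p = 0.041). Without EZH2-/- +EZH2 library 1 it was 3.94 (adjusted p = 0.011), and without EZH2-/+ library 3, which bears on the shared spread alone, its adjusted p was 0.028. Without EZH2-/+ library 2 the EZH2-/+ comparison gave 3.94 (adjusted p = 0.0098). The call against EZH2+/+ ESCs was lost without EZH2+/+ library 2 (adjusted p = 0.052) or 3 (0.077) and without EZH2-/- library 2 (0.071) or 3 (0.062).

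EOMES (ENSG00000163508, chr3:27715949-27722711, minus strand), which endoderm and cardiac mesoderm need, measured 15.9, 11.4 and 5.00 RPM in EZH2+/+, 18.1, 30.2 and 2.28 in EZH2-/+, 41.9, 45.4 and 23.7 in EZH2-/-, and 44.9, 13.8 and 7.11 in EZH2-/- +EZH2 libraries. In EZH2-/+ and EZH2-/- +EZH2 ESCs 1 library each reached the EZH2-/- range, so these groups overlapped, while the EZH2+/+ libraries were all lower. The fold changes were 1.87 ± 0.84 against EZH2+/+ (adjusted p = 0.11, with the block 0.0085), 1.71 ± 0.84 against EZH2-/+ (0.18, with the block 0.019) and 1.11 ± 0.84 against EZH2-/- +EZH2 ESCs (0.55). Without EZH2-/+ library 3 the EZH2+/+ comparison passed (adjusted p = 0.025). Without EZH2-/- +EZH2 library 1 the fold change against that genotype was 1.84 (adjusted p = 0.28), and without EZH2-/+ library 2 that against EZH2-/+ ESCs was 2.44 (0.07).

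TBX6 (ENSG00000149922, chr16:30085793-30091887, minus strand) measured 1.58, 2.16 and 2.73 RPM in EZH2+/+, 1.15, 1.04 and 2.33 in EZH2-/+, 1.06, 1.22 and 2.85 in EZH2-/-, and 0.977, 0.75 and 1.12 in EZH2-/- +EZH2 libraries. Here the genotypes overlapped, and 6 of the 9 other libraries were at or above the lowest EZH2-/- library. The fold change of EZH2-/- ESCs was -0.42 ± 0.39 against EZH2+/+, 0.13 ± 0.39 against EZH2-/+ and 0.67 ± 0.39 against EZH2-/- +EZH2 ESCs, with adjusted p of 0.45, 0.85 and 0.43. The second was -0.08 without EZH2-/+ library 2 (adjusted p = 0.92) and the last 0.70 without EZH2-/- +EZH2 library 1 (0.45). The 3 EZH2-/- +EZH2 libraries lay below the 3 EZH2+/+ libraries, at a log2 fold change of -1.09 ± 0.39 whose adjusted p was 0.1, or 0.012 when library number was the block.

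Of the homeobox genes, MIXL1 (ENSG00000185155, chr1:226223618-226227054, plus strand), a mesendoderm gene downstream of Nodal, measured 20.6, 14.0 and 7.01 RPM in EZH2+/+, 20.4, 38.5 and 1.78 in EZH2-/+, 60.9, 86.0 and 65.9 in EZH2-/-, and 59.9, 19.1 and 9.51 in EZH2-/- +EZH2 libraries. The lowest EZH2-/- value, 60.9 RPM, lay just above EZH2-/- +EZH2 library 1 at 59.9, so these groups were barely apart. Its spread in EZH2-/+ ESCs (mean 20.2 ± 18.4 RPM, SD, n = 3) and in EZH2-/- +EZH2 ESCs (29.5 ± 26.8) was as wide as its mean. The fold change was 2.46 ± 0.91 against EZH2+/+ (adjusted p = 0.056, with the block 0.0092), 2.62 ± 0.91 against EZH2-/+ (0.064, with the block 0.0099) and 1.66 ± 0.91 against EZH2-/- +EZH2 ESCs (0.39, with the block 0.13). The first passed without EZH2-/+ library 2 (adjusted p = 0.035) or 3 (0.0048) and without EZH2-/- +EZH2 library 1 (0.047) or 3 (0.048), and the second without EZH2-/+ library 2 (3.50, adjusted p = 0.019). Without EZH2-/- +EZH2 library 1 the last was 2.37 (adjusted p = 0.22). Limma-voom on recovered reads, chosen after seeing the data, passed the first (adjusted p = 0.048) and the second (0.049), and median-ratio scaling the first (0.043).

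GSC (ENSG00000133937, chr14:94768216-94770230, minus strand), a transcriptional repressor that acts in the organizer, measured 1.84, 1.09 and 0.656 RPM in EZH2+/+, 2.23, 8.23 and 0.178 in EZH2-/+, 4.86, 9.67 and 3.53 in EZH2-/-, and 3.19, 0.965 and 0.36 in EZH2-/- +EZH2 libraries. EZH2-/+ library 2 reached the EZH2-/- levels and the 8 other libraries did not. The fold change was 2.22 ± 1.00 against EZH2+/+ (adjusted p = 0.11, with the block 0.022), 1.68 ± 1.00 against EZH2-/+ (0.27) and 2.26 ± 1.00 against EZH2-/- +EZH2 ESCs (0.28). Without EZH2-/+ library 2 the second was 2.80 (adjusted p = 0.053), without EZH2-/- +EZH2 library 1 the last was 3.00 (0.17), and without EZH2-/+ library 3 the first passed (0.023).

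LHX1 (ENSG00000273706, chr17:36936785-36944612, plus strand), a LIM homeobox gene of the anterior streak, had the largest fold changes of the 8 against EZH2+/+ and EZH2-/- +EZH2 ESCs. It measured 1.24, 0.558 and 0.0437 RPM in EZH2+/+, 1.44, 2.2 and 0.16 in EZH2-/+, 7.56, 18.6 and 10.4 in EZH2-/-, and 1.65, 0.241 and 0.24 in EZH2-/- +EZH2 libraries, and 1 EZH2+/+ library was below the detection limit with 2 reads. Every EZH2-/- library was far above the rest. LHX1 rose by 4.51 ± 0.93 against EZH2+/+ (adjusted p = 0.0034), 3.55 ± 0.93 against EZH2-/+ (0.019) and 4.29 ± 0.93 against EZH2-/- +EZH2 ESCs (0.027). The first call held in 12 of 12 fits that each left out a library. The second was lost without EZH2-/+ library 3 (adjusted p = 0.064) or EZH2-/- library 2 (0.081) or 3 (0.051), and the last without EZH2-/- library 2 (0.15) or 3 (0.087) or EZH2-/- +EZH2 library 2 (0.12) or 3 (0.1). The last was also lost with a pseudocount of 0.01 RPM (adjusted p = 0.065) and with limma-voom (0.071). Without EZH2-/- +EZH2 library 1 it was 5.07 (adjusted p = 0.026), and without EZH2-/+ library 2 the second was 4.18 (0.015).

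EVX1 (ENSG00000106038, chr7:27242700-27247176, plus strand), an even-skipped homeobox gene beside the HOXA cluster, measured 0.71, 0.685 and 0.306 RPM in EZH2+/+, 0.416, 0.0432 and 0.089 in EZH2-/+, 2.27, 4.66 and 2.73 in EZH2-/-, and 0.977, 0.134 and 0.28 in EZH2-/- +EZH2 libraries. The EZH2-/- libraries were again above all others, and 1 EZH2-/+ library held 2 reads, under the detection limit. EVX1 rose in all 3 comparisons, by 2.32 ± 0.59 against EZH2+/+ (adjusted p = 0.011), 3.72 ± 0.59 against EZH2-/+ (0.0011) and 2.79 ± 0.59 against EZH2-/- +EZH2 ESCs (0.023). The first was lost without EZH2-/- library 2 (adjusted p = 0.051), and the last without EZH2-/- library 2 (0.14) or 3 (0.073) or EZH2-/- +EZH2 library 2 (0.11) or 3 (0.083), and with a pseudocount of 0.01 RPM (0.062). Without EZH2-/- +EZH2 library 1 it was 3.41 (adjusted p = 0.013), and without EZH2-/+ library 2 the second was 3.34 (0.0047).

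The reads were counted without regard to strand, and LHX1 and EVX1 each overlap a gene on the other strand. The partner of EVX1, EVX1-AS, measured 0.827 to 1.46 RPM in EZH2-/- ESCs and rose by 1.94 ± 0.41 against EZH2-/- +EZH2 ESCs (adjusted p = 0.024). That of LHX1, RP11-445F12.2, measured 0.862 to 2.35 RPM and rose by 3.61 ± 0.53 (adjusted p = 0.0038). Reads of these genes cannot be told apart from those of their partners where they overlap.

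MESP1 (ENSG00000166823, chr15:89748661-89751310, minus strand), the bHLH gene of the group, measured 0.555, 0.507 and 1.01 RPM in EZH2+/+, 0.367, 0.367 and 0.285 in EZH2-/+, 0.51, 2.76 and 2.67 in EZH2-/-, and 0.463, 0.295 and 0.44 in EZH2-/- +EZH2 libraries. EZH2-/- library 1 sat among the other genotypes, and libraries 2 and 3 above them. MESP1 rose by 1.95 ± 0.50 against EZH2-/+ ESCs (adjusted p = 0.018), a call lost without EZH2-/- library 2 (0.089) or 3 (0.076) and with the 2 genotypes alone in the fit (0.064), and kept at 2.00 without EZH2-/+ library 2 (0.037). The fold changes against EZH2-/- +EZH2 (1.78 ± 0.50, adjusted p = 0.082, with the block 0.039) and EZH2+/+ ESCs (1.15 ± 0.50, adjusted p = 0.1) did not pass. Without EZH2-/- +EZH2 library 1 the former was 1.87 (adjusted p = 0.13). Without EZH2-/- library 1 both passed, at 2.51 (adjusted p = 0.002) and 1.89 (0.0024).

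Counted over the group, 2 of 8 regulators rose and 0 fell in EZH2-/- against EZH2-/- +EZH2 ESCs, where 2.63% of the 20608 genes tested rose and 0.524% fell. Blocking on library number, 4 rose (T and MESP1 as well), against 6.19% of all genes. The count was 3 without EZH2-/- +EZH2 library 1, without EZH2-/- library 1, or without EZH2-/+ library 3, which is in neither group compared. It was 0 without EZH2-/- library 2 or 3 or EZH2-/- +EZH2 library 2 or 3. The share of all genes called was not counted in any fit that left out a library. The 3 libraries of each genotype did not overlap for 6 of 8 regulators, all higher in EZH2-/- ESCs, against 13.5% of all genes. The median fold change of the 8 was 2.02, against 0.02 over all genes.

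Against EZH2+/+ ESCs 3 of 8 rose and 0 fell, where 12.6% of genes rose and 18.8% fell. With the block 6 rose (also EOMES, MIXL1 and GSC), against 17.3% of all genes. The count was 6 without EZH2-/+ library 3, which is in neither group compared, and 1 without EZH2-/- library 2. Here 6 of 8 did not overlap, against 20.6% higher among all genes, and the medians were 2.27 and -0.13. Against EZH2-/+ ESCs 4 of 8 rose and 0 fell, where 10.3% of genes rose and 8.25% fell, and with the block 6 rose (EOMES and MIXL1 added), against 15.5%. The count was 2 without EZH2-/- library 2 or 3 and 5 without EZH2-/+ library 2. The libraries of 5 of 8 did not overlap, against 17.8%, with medians of 2.28 and -0.03. The 3 comparisons share the EZH2-/- libraries, so they are not independent of each other.

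**Figure D2:**
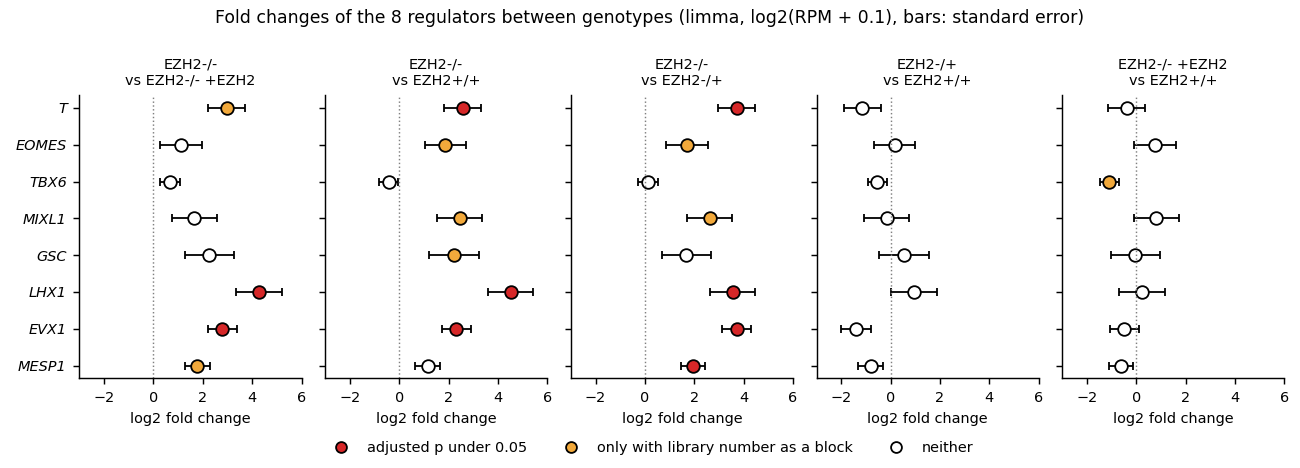
Log2 fold changes (limma on log2(RPM + 0.1)) of the 8 regulators in the 5 comparisons between genotypes, with bars for the standard error. Filled red points passed an adjusted p of 0.05 and amber points passed only when library number was the block, and in the first 3 panels 2, 3 and 4 points are red, and in the last 2 panels none is.

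Between the genotypes that keep EZH2, 0 of 8 regulators passed. In EZH2-/+ against EZH2+/+ ESCs 0.18% of all genes rose and 0.966% fell, and limma gave 1 regulator an unadjusted p under 0.05, EVX1 at -1.40 ± 0.59 (adjusted p = 0.41). The MESP1 libraries did not overlap, with EZH2-/+ lower, against 11.9% of all genes lower in this way. The 8 fold changes had a median of -0.35, against -0.09 over all genes. In EZH2-/- +EZH2 against EZH2+/+ ESCs 3.4% of genes rose and 6.9% fell, and the unadjusted p was under 0.05 for TBX6 alone. With the block TBX6 fell (1 of 8, against 16.1% of all genes). MESP1 and TBX6 did not overlap between these genotypes, both lower in EZH2-/- +EZH2 ESCs, against 22.4% of all genes, and the medians were -0.21 and -0.15. EOMES and MIXL1 were at 0.75 ± 0.84 (adjusted p = 0.62) and 0.81 ± 0.91 (0.63) here, without a difference that could be told from 0.

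Ordered by mean RPM (± SD, n = 3), T stood at 25.6 ± 7.21 in EZH2-/-, 5.19 ± 6.18 in EZH2-/- +EZH2, 4.39 ± 2.04 in EZH2+/+ and 2.12 ± 1.33 in EZH2-/+ ESCs. EVX1 had the order 3.22 ± 1.27 in EZH2-/-, 0.567 ± 0.226 in EZH2+/+, 0.464 ± 0.451 in EZH2-/- +EZH2 and 0.183 ± 0.203 in EZH2-/+ ESCs, and LHX1 12.2 ± 5.72 in EZH2-/-, 1.27 ± 1.03 in EZH2-/+, 0.709 ± 0.811 in EZH2-/- +EZH2 and 0.615 ± 0.602 in EZH2+/+ ESCs. For these 3 genes the EZH2-/- mean stood clear, and the libraries of the lower 3 genotypes overlapped. EOMES had 37.0 ± 11.6 RPM in EZH2-/-, 21.9 ± 20.2 in EZH2-/- +EZH2, 16.9 ± 14.0 in EZH2-/+ and 10.8 ± 5.49 in EZH2+/+ ESCs, and MIXL1 kept the same order with 70.9 ± 13.3 RPM in EZH2-/- and 13.9 ± 6.77 in EZH2+/+ ESCs. GSC ran from 6.02 ± 3.23 in EZH2-/- over 3.55 ± 4.19 in EZH2-/+ and 1.5 ± 1.49 in EZH2-/- +EZH2 to 1.20 ± 0.601 in EZH2+/+ ESCs, with neighbours that did not differ beyond their spread. MESP1 was at 1.98 ± 1.27 in EZH2-/- and 0.34 ± 0.0477 in EZH2-/+ ESCs at the ends of its order. TBX6 alone had its highest mean in EZH2+/+ ESCs, 2.15 ± 0.578, followed by 1.71 ± 0.992 in EZH2-/-.

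The difference between EZH2-/- and EZH2-/- +EZH2 ESCs was not alike in the 3 numbered pairs of libraries. In pair 1 the log2 differences of the 8 regulators had a median of 0.3 and ran from -0.1 (EOMES) to 2.13 (LHX1), with 2 above 1. In pair 2 the median was 3.03 and 7 were above 1. In pair 3 it was 2.84, and 8 of 8 were above 1. For 8 of 8 regulators pair 1 gave the smallest difference. T, for instance, differed by 0.49, 3.69 and 4.71 in pairs 1 to 3, MIXL1 by 0.02, 2.16 and 2.78, and MESP1 by 0.12, 2.86 and 2.36. On each side the same number stood out, since EZH2-/- library 1 was the lowest of its genotype for 6 regulators and EZH2-/- +EZH2 library 1 the highest for 7. For these genes library number was thus not a shift shared by these genotypes. The fit with the block pools its error over all genotypes, so its calls in this comparison do not mean that the pairs were alike.

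**Figure D3:**
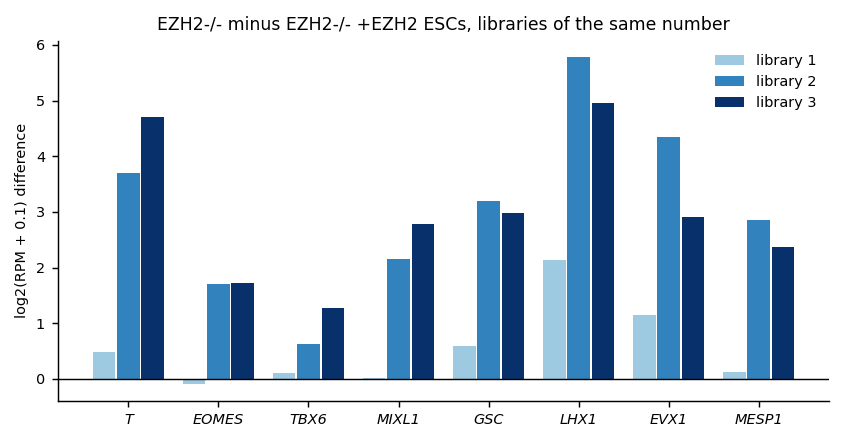
Difference in log2(RPM + 0.1) between EZH2-/- and EZH2-/- +EZH2 libraries of the same number, 1 bar per library number for each of the 8 regulators. The bar of number 1 is the shortest or the lowest for every gene, at most 2.13 (LHX1), while those of numbers 2 and 3 reach 5.78 and 4.95.

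By the root mean square difference of centred log2(RPM + 0.1) profiles over the 12 libraries, among 15499 genes, EOMES and MIXL1 were the nearest pair within the group (0.41), and EOMES was also second nearest to GSC (0.59). T and EVX1 were each among the other's 3 nearest genes (0.66). Outside the group, EVX1 was nearest to CDX1 (0.57), a caudal homeobox gene of the posterior streak, and APLNR (0.6), the apelin receptor of early mesoderm. T was followed by RP13-238F13.3 (0.78) and NKX1-2 (0.8), a homeobox gene of the caudal epiblast. GSC was nearest to FGF17 (0.5), LHX1 to GATA6 (0.82), an endoderm factor, and EOMES and GSC both had C9orf47 among their 3 nearest (0.45 and 0.6), EOMES also the bradykinin receptor gene BDKRB2 (0.44). MIXL1 was nearest to RP4-536B24.2 (0.37), with the amino acid transporter SLC7A5 also among its 3 (0.48), and LHX1 had RP11-627G18.1 and LRRN4 (both 0.96) after GATA6. MESP1 was nearest to PGF (0.38), RCN3 (0.39) and CDH13 (0.42), and TBX6, which varied little, to CTD-2228K2.7 (0.17), TMEFF2 (0.21) and SLC9A3 (0.22). These likenesses are a description over 12 libraries in 4 genotypes.

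Genes around the streak were read from lists, whose counts stand against the shares of all 20608 genes tested. Against EZH2-/- +EZH2 ESCs 2.63% of all genes rose and 0.524% fell, and with the block 6.19% rose and 661 genes fell. Against EZH2+/+ ESCs 12.6% rose and 18.8% fell, and with the block 17.3% rose and 5773 genes fell. Of 16 signals and signal components that induce or limit the streak, 1 rose in EZH2-/- against EZH2-/- +EZH2 ESCs, the BMP ligand BMP4 (1.42 ± 0.33, adjusted p = 0.037), and 0 fell, with a median of 1.36. With the block 6 rose. The largest fold changes that did not pass were those of the antagonists CER1 (3.46, adjusted p = 0.2) and DKK1 (2.47, 0.064). Against EZH2+/+ ESCs 11 of the 16 rose and 1 fell. The summed level of the list was 274 to 312 RPM in EZH2+/+, 1550 to 2360 in EZH2-/- and 532 to 1180 in EZH2-/- +EZH2 ESCs, and in EZH2-/+ ESCs 252 and 506 in libraries 3 and 1 but 1710 in library 2.

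Of 12 other primitive streak genes 11 were tested, and 0 rose or fell against EZH2-/- +EZH2 ESCs (3 and 1 with the block). Largest among them were CDX1 (2.47, adjusted p = 0.053), FGF17 (2.36, 0.22) and the caudal gene CDX2 (2.2, 0.16), and lowest the cadherin CDH2 (-0.55) and the activin antagonist FST (-0.33). Against EZH2+/+ ESCs 2 rose and 2 fell, where 12.6% of all genes rose and 18.8% fell. Of 16 mesoderm genes 9 rose against EZH2-/- +EZH2 ESCs (13 with the block) and 0 fell, with a median of 2.98. There 2.63% of all genes rose. MSGN1 and HAND2 had no read in any EZH2-/- +EZH2 library, so their fitted values (3.52 and 3.96, both above the median) rest on the pseudocount. Their mean RPM in EZH2-/- ESCs was 14.6 and 27.6 times the level of 3 reads per EZH2-/- +EZH2 library. Their lowest EZH2-/- libraries held 0.281 and 0.158 RPM. The 9 that rose included the bHLH genes TWIST1 (4.43 ± 0.31, adjusted p = 1.7e-05) and HAND1 (4.41 ± 0.88, 0.019) and the forkhead gene FOXC1 (4.14 ± 0.31, 2.1e-05). At the low end were SNAI2 (2.99, adjusted p = 0.037) and ISL1 (2.98, 0.0075). The count was 3 when genes under a mean of 1 RPM were left out. Against EZH2+/+ ESCs 10 rose and 1 fell.

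Of 10 definitive endoderm genes 3 rose against EZH2-/- +EZH2 ESCs, among them SOX17 (2.56 ± 0.56, adjusted p = 0.027) and the chemokine receptor CXCR4 (2.38 ± 0.58, 0.045), and 8 with the block, with a median of 2.26 and 6 risen against EZH2+/+ ESCs. The summed endoderm level in EZH2-/+ library 2 was 466 RPM against 73.5 and 18.2 in libraries 1 and 3. CER1, which the signal list holds too, made up 358 RPM of that 466, and the other 9 genes summed to 108 RPM there against 36.9 and 15.7. With CER1 included, EZH2-/- ESCs held 175 to 483, EZH2+/+ 26.6 to 54.9 and EZH2-/- +EZH2 29.1 to 58.8 RPM. Of 11 pluripotency genes 0 rose or fell against EZH2-/- +EZH2 ESCs, POU5F1 (OCT4) at 0.02 ± 0.16, and with the block SOX2 fell (-0.57, adjusted p = 0.025). Against EZH2+/+ ESCs 5 rose and 1 fell.

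Markers of other cell types moved as well, and their part in the results was not tested. Of 12 fibroblast and matrix genes 11 were tested and 5 rose against EZH2-/- +EZH2 ESCs, LUM (0.369 to 6.25 RPM against 0 to 0.0268, adjusted p = 0.016), COL3A1 (6.94, adjusted p = 0.0095), the smooth muscle actin gene ACTA2 (3.73, 0.025), FN1 (2.39, 0.0028) and COL5A1 (1.94, 0.017). In this comparison 0 fell, and with the block VIM fell (-0.78, limma adjusted p = 0.013). S100A4 (-0.32) and POSTN (-0.26) also lay below 0. Against EZH2+/+ ESCs 6 of these genes rose and 2 fell, or 6 and 4 with the block. The summed level of the 12 genes was 1010 to 1380 RPM in EZH2+/+, 896 to 1240 in EZH2-/+, 1120 to 2430 in EZH2-/- and 907 to 1220 in EZH2-/- +EZH2 ESCs, and 1 gene was at 0 in every EZH2-/+ and EZH2-/- +EZH2 library. Of 12 trophectoderm and amnion genes 9 were tested and 4 rose, HAND1 and ISL1, which the mesoderm list holds too, GATA3 (2.64, adjusted p = 0.018) and GATA2 (2.42, 0.033). Their sum was 20.1 to 20.7, 11.1 to 30.2, 31.6 to 74.1 and 19.2 to 28.1 RPM in the same order, with 2 genes at 0 throughout. Of 13 neuroectoderm genes 10 were tested and 1 rose, ZIC1 (2.42, adjusted p = 0.039), while against EZH2+/+ ESCs 0 rose and 5 fell, with sums of 92.2 to 105, 50.5 to 101, 31.8 to 44.3 and 37.3 to 48.7 RPM.

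In chromatin, 7 of the 8 promoters had between 0.0414 (T) and 0.107 (MESP1) of their EZH2+/+ level of H3K27me3 in EZH2-/- ESCs and more again with EZH2 restored, while TBX6 had at most 1.15 times input in any genotype. ChIP-seq reads were counted in windows reaching 2.5 kb to either side of a start site, and the table gives 1 value per genotype and mark, a pool over replicates whose number differs between the labels and the study's text, so there is no replicate error and no test. The genes had 1 to 5 windows each, and the one with the most H3K27me3 in EZH2+/+ ESCs stands for the gene, as for every gene name. This choice favours high EZH2+/+ values, so H3K27me3 changes against EZH2+/+ ESCs lean towards loss at all gene names. The median EZH2+/+ level was 1.96 RPM over the picked windows and 1.51 over all windows. For the 4 genes with printed promoters the windows are chr6:166165377-166170377 (T), chr7:27240868-27245868 (EVX1), chr1:226221118-226226118 (MIXL1) and chr16:30089384-30094384 (TBX6). Input in these windows was 0.975 to 1.78 RPM over the 8 genes and 4 genotypes.

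Taking the genotypes as EZH2+/+, EZH2-/+, EZH2-/-, then EZH2-/- +EZH2, H3K27me3 at LHX1 measured 51.3, 58.7, 4.83 and 45.6 RPM. At EVX1 it measured 48.3, 65.7, 3.47 and 47.0 RPM, and at T 38.0, 47.3, 1.48 and 33.8. Each of these was higher than at over 99% of gene names in EZH2+/+ ESCs (99.8, 99.7 and 99.1%), and in EZH2-/- ESCs was 3.78 times input at LHX1, 2.65 times at EVX1 and 1.52 times at T. GSC measured 36.5, 36.8, 2.22 and 31.7 RPM. EOMES measured 24.9, 27.5, 1.86 and 20.7 RPM. MESP1, at 16, 28.1, 1.62 and 23.3, had 1.75 times its EZH2+/+ level in EZH2-/+ and 1.46 times in EZH2-/- +EZH2 ESCs.

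MIXL1 and TBX6 stood apart from these 6. MIXL1 measured 7.77, 4.47, 0.679 and 3.01 RPM, which in EZH2+/+ ESCs was 6.17 times input and above 87.2% of gene names. It was lower than at the other 6 genes, and with EZH2 restored it was below its EZH2+/+ level (-1.34 on the log2 scale against EZH2+/+ ESCs). TBX6 measured 1.58, 0.367, 0.831 and 1.45 RPM, which is under its input in EZH2-/+ and EZH2-/- ESCs (1.18 and 1.32 RPM) and 1.09 and 1.15 times input in EZH2+/+ and EZH2-/- +EZH2 ESCs. TBX6 was lower in H3K27me3 than most genes, since 37.8% of gene names lay below it in EZH2+/+ ESCs.

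The log2 change in EZH2-/- against EZH2+/+ ESCs was past 1, and lower, for 7 of 8, where 48.0% of all gene names were. It was -4.59 for T, -3.98 for GSC, -3.76 for EVX1, -3.67 for EOMES, -3.38 for LHX1, -3.34 for MIXL1, -3.22 for MESP1 and -0.85 for TBX6. The median of -3.53 lay below that of all gene names (-0.94) and close to that of the 6235 promoters, 17.5% of gene names, that carried H3K27me3 in EZH2+/+ ESCs (-3.67), to which 7 of the 8 belong. The log2 change against EZH2-/- +EZH2 ESCs was past 1 and lower for the same 7 genes, against 37.3% of gene names, from -4.43 for T to -2.00 for MIXL1. Between EZH2-/+ and EZH2+/+ ESCs 1 of 8 was past 1, TBX6 (-1.85, against 4.49% of gene names lower), and between EZH2-/- +EZH2 and EZH2+/+ ESCs 1, MIXL1 (against 5.6%).

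**Figure D4:**
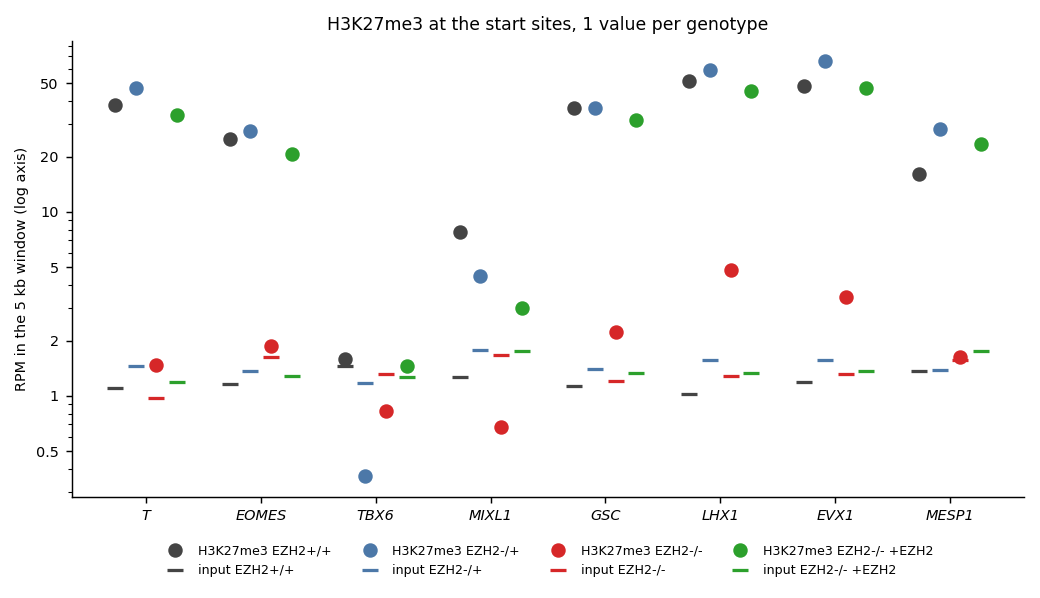
H3K27me3 (circles) and input (dashes) in RPM (log axis) in the 5 kb window of each regulator, 1 value per EZH2 genotype. At T, EOMES, GSC, LHX1, EVX1 and MESP1 the EZH2-/- circle lies far under the other 3, at 1.48 to 4.83 RPM, and TBX6 lies between 0.311 (EZH2-/+) and 1.15 (EZH2-/- +EZH2) times input.

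EZH2 binding was read from 1 ChIP-seq sample of EZH2+/+ ESCs, titled for EZH2 although its antibody label reads None, so its target is taken from the title and the ChIP protocol. Its level was 9.36 RPM at LHX1, 5.71 at T, 5.60 at GSC, 5.19 at EVX1 and 2.65 at EOMES, each above 97.7% or more of gene names, whose median was 0.29. At MESP1 it was 0.773 RPM, and at MIXL1 and TBX6 0.515 each, which 70.5% of gene names did not reach. MIXL1 and TBX6 had the same EZH2 value while their H3K27me3 differed (7.77 and 1.58 RPM).

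Of the marks of active chromatin, H3K4me3, found at promoters, measured 13.2, 30.0, 18 and 20.8 RPM at T, with the genotypes in the same order. EVX1 had 11.9, 18.1, 9.46 and 17.4, LHX1 10.9, 18.8, 7.31 and 12.3, and MIXL1 5.22, 13.1, 10.7 and 9.20 RPM. The EZH2+/+ H3K4me3 column stood apart from the other 3 (its lowest value was 0.263 RPM, theirs 0.0518 to 0.0871). In EZH2-/- against EZH2+/+ ESCs MIXL1 was past 1 (1.02, 1 of 8, against 2.47% of gene names higher), and the other 7 lay between -0.57 (LHX1) and 0.45 (T), with medians of -0.15 for the 8 and -0.17 for all gene names. Against EZH2-/- +EZH2 ESCs, which leaves that column out, 0 of 8 were past 1, against 0.67% of gene names higher and 0.947% lower, and MIXL1 was at 0.21. T (1.18) and MIXL1 (1.31) were past 1 in EZH2-/+ against EZH2+/+ ESCs, against 5.19% of gene names.

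H3K27ac, a mark of active promoters and enhancers on the residue that PRC2 methylates, was below the median of 2.04 RPM of gene names at 7 of 8 genes in EZH2+/+ ESCs, with 1.14 RPM at EVX1 as the lowest and 2.22 at TBX6 as the highest. In EZH2-/- ESCs it was 1.95 at EVX1, 1.61 at T, 2.27 at EOMES, 2.43 at MIXL1, 2.18 at GSC, 1.36 at MESP1 and 3.25 at TBX6, each above the EZH2+/+ value, and 0.96 at LHX1, below its 1.60. No regulator was past 1 (0 of 8, against 9.18% of gene names higher and 3.33% lower), and the median log2 change of 0.47 lay between that of all gene names (0.31) and that of the H3K27me3 promoters (0.66). Most gene names were thus higher in EZH2-/- ESCs too, though their share was not counted. Against EZH2-/- +EZH2 ESCs EVX1 was past 1 (1.13, from 0.835 to 1.95 RPM, 1 of 8, against 3.85% of gene names). These values lay near input, which at EVX1 was 1.37 RPM in EZH2-/- +EZH2 and 1.31 in EZH2-/- ESCs. In EZH2-/- ESCs H3K27ac was under input at LHX1 (input 1.28 RPM) and MESP1 (1.57) and over it at the other genes. LHX1, which had the largest RNA fold change of the 8 against EZH2+/+ ESCs, had 0.96 RPM of H3K27ac in EZH2-/- ESCs, which 9.21% of gene names lay below.

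H3K4me1, a mark of enhancers and of the flanks of promoters, was between 3.37 RPM (MESP1) and 8.06 RPM (EVX1) in EZH2+/+ ESCs. It was higher in EZH2-/- ESCs at 8 of 8, with a median log2 change of 0.35 against 0.11 over all gene names and 0.36 over the H3K27me3 promoters. Most gene names were thus higher too, though their share was not counted, and the 8 changed about as the H3K27me3 promoters did. None was past 1 (0 of 8, against 2.34% of gene names higher and 4.06% lower). The largest changes were at MESP1 (0.99, from 3.37 to 6.80 RPM), MIXL1 (0.78, from 3.87 to 6.72) and LHX1 (0.55, from 4.46 to 6.58), and the smallest at T (0.06). The input itself differed by -0.16 to 0.46 between these genotypes at the 8 genes.

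**Figure D5:**
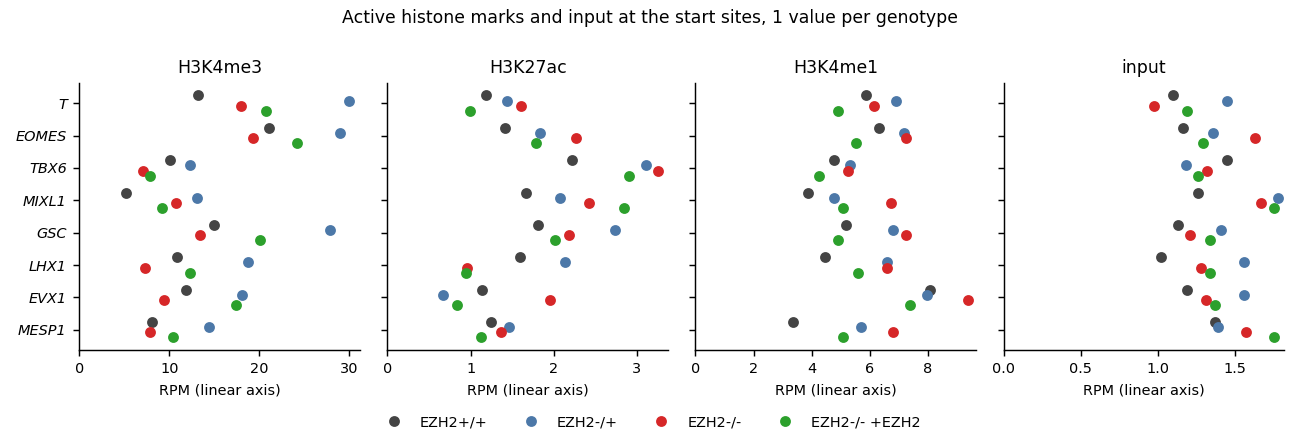
H3K4me3, H3K27ac, H3K4me1 and input in RPM (linear axes from 0) in the window of each regulator, 1 point per EZH2 genotype. H3K4me3 is lowest in EZH2+/+ ESCs at T and MIXL1 (13.2 and 5.22 RPM), and the H3K27ac points of all genes stay between 0.67 and 3.25 RPM.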

How the data were processed

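mRNA was sequenced from 3 libraries per EZH2 genotype, and native ChIP DNA for H3K27me3, H3K4me3, H3K27ac and H3K4me1, input, and cross-linked EZH2 ChIP DNA (EZH2+/+ alone) gave 1 column per genotype. The authors trimmed reads with Trim Galore 0.4.0, mapped them to GRCh38 with TopHat2 2.0.12 (RNA) or Bowtie2 2.2.5 (ChIP), and counted them in SeqMonk, RNA without regard to strand. The deposited values are log2 RPM, reads scaled to the library total, and a gene without a read is set at 0.9 of a read, which was returned to 0 here. Reads recovered from the RPM steps were whole in 100% of values below 1000 reads (tolerance 0.02 reads), and were used for depth, the 3-read detection limit (counting error alone) and 1 alternative.

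The 20608 genes that averaged 0.1 RPM or more were tested with limma 3.58.1 in R 4.3.3 on log2(RPM + 0.1), in 1 fit of all 12 libraries with genotype as the factor, two-sided, with Benjamini-Hochberg adjustment over all of them and a call at an adjusted p under 0.05. Fold changes on this scale understate those of low genes. The script was tested on simulated data. Whether the replicate numbers pair the libraries was checked from the data: deviations from the genotype means correlated at 0.11 to 0.56 (mean 0.33) in 18 of 18 pairs with the same number. In 36 pairs with different numbers they correlated at -0.49 to 0.24 (mean -0.16). Deviations within a genotype sum to 0, so this second mean is largely fixed by the first and adds little to it. The fit with the number as a block is therefore printed where it changes a call. The labels call the libraries replicates and name no separate cultures, so p-values measure the spread between these libraries. ChIP values were compared as differences of log2(RPM + 0.1), counted past 1. A promoter carried H3K27me3 where input was under 0.1 and H3K27me3 over 0.1 log2 RPM per kb in EZH2+/+ ESCs. These are the study's cut-offs, applied here to the picked window of each gene name, and they gave more promoters than the study reports. The reason was not tested.

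The 8 genes and the lists were chosen with earlier results of these data known. Named were the 8 genes, for each the 3 genes nearest in profile (mean of at least 1 RPM), EZH2, and of each list the 3 highest and 2 lowest fold changes among those called, or the largest where none was. The values of 1 gene that this rule names are not reported here. The alternatives were other pseudocounts, filters, scaling, samples in the fit, the block, leaving out each library, other windows and another reference genotype. Sequences came from RefSeq (GRCh38.p14). Figures were drawn with matplotlib 3.10.9.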

Additional observations from a re-analysis of the deposited data

How the results depend on the processing

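Of 315 fold changes of the 8 regulators under other pseudocounts, filters, scaling, samples or models, 292 kept their direction and their side of the threshold, and of 480 from fits leaving out a library 435 did. With a pseudocount of 0.01 RPM 0 regulators were called in EZH2-/- against EZH2-/- +EZH2 ESCs, and with limma-voom on recovered reads, chosen after seeing the data, 1. With the replicate block the counts were 4 there, 6 against EZH2+/+ ESCs and 1 in EZH2-/- +EZH2 against EZH2+/+ ESCs, and the block changed no call of a regulator other than those printed beside the results. With the 2 genotypes alone in the fit the counts were 6 against EZH2+/+ ESCs, 3 against EZH2-/+ ESCs (4 before, without MESP1) and 1 in EZH2-/- +EZH2 against EZH2+/+ ESCs. The share of all genes called was counted only under the main settings, without and with the block. Leaving out 1 library at a time gave 0 to 3 calls against EZH2-/- +EZH2, 1 to 6 against EZH2+/+ and 2 to 5 against EZH2-/+ ESCs, and 0 to 0 in the other 2 comparisons. Over these fits the fold change crossed 0 for TBX6 in EZH2-/- against EZH2-/+ ESCs (-0.29 to 0.47), in EZH2-/+ against EZH2+/+ ESCs for EOMES (-0.58 to 1.26), MIXL1 (-1.04 to 1.14) and GSC (-0.58 to 1.87), and in EZH2-/- +EZH2 against EZH2+/+ ESCs for T (-1.36 to 0.39), GSC (-0.78 to 0.64), LHX1 (-0.68 to 0.93) and EVX1 (-1.09 to 0.01), none of which had been called. GSC in the last comparison, at -0.04, became 0.04 with a pseudocount of 0.5 RPM, 0.09 with median-ratio scaling and 0.11 with limma-voom. Median-ratio scaling moved the median of all genes from -0.13 to -0.01 against EZH2+/+ ESCs and from -0.15 to -0.01 in EZH2-/- +EZH2 against EZH2+/+ ESCs. The 7 promoters lower in H3K27me3 stayed 7 under every alternative. The H3K4me3 count of 1 (MIXL1) became 0 with a pseudocount of 1 RPM, with the mean over all windows and with EZH2-/- +EZH2 ESCs as reference, and the H3K27ac count of 0 became 1 (EVX1) with that reference. Among the lists, against EZH2-/- +EZH2 ESCs, limma-voom called 4 mesoderm, 2 fibroblast and matrix, 1 endoderm and 0 trophectoderm and amnion genes. In each case the cause was not tested. The count models planned for recovered reads, edgeR and DESeq2, were not run, as the deposited unit is log2. With as few as 2 reads of LHX1 and EVX1 and 11 of MESP1 in a library, depth limits their fold changes, and ChIP values carry no replicate error.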

Other observations

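NODAL, the streak-inducing ligand, was chosen for a sentence after its values were seen. EZH2+/+ ESCs held 8.20 ± 3.59 RPM (SD, n = 3) and EZH2-/+ ESCs 25.5 ± 23.1. EZH2-/- ESCs reached 196 ± 46.4 RPM, and with EZH2 restored the level was 65.6 ± 33.1. It rose in EZH2-/- against EZH2+/+ ESCs (log2 fold change 4.64 ± 0.80, SE, limma adjusted p = 0.0011), and it was also higher in EZH2-/- +EZH2 than in EZH2+/+ ESCs (2.96 ± 0.80, adjusted p = 0.033). In EZH2-/- against EZH2-/- +EZH2 ESCs it did not pass (1.68 ± 0.80, adjusted p = 0.31, with the block 0.1).

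BMP4, another ligand of the streak, had the same 2 calls, at 3.11 ± 0.33 in EZH2-/- against EZH2+/+ ESCs (adjusted p = 6e-05) and 1.69 ± 0.33 in EZH2-/- +EZH2 against EZH2+/+ ESCs (0.0072). Unlike NODAL, it also passed in EZH2-/- against EZH2-/- +EZH2 ESCs (1.42 ± 0.33, limma adjusted p = 0.037). MSGN1, a presomitic mesoderm gene, also chosen after its values were seen, had 0.281 to 2.02 RPM in EZH2-/- ESCs, 0 reads in every EZH2-/+ and EZH2-/- +EZH2 library and at most 0.0761 RPM in EZH2+/+ ESCs (limma adjusted p = 0.005 against EZH2-/- +EZH2 and 0.00088 against EZH2+/+ ESCs), while TBX6, which is expressed in the same tissue, did not pass in either comparison (0.67 and -0.42).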
